A study of Mus musculus with 6 samples.

Results

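The response to PRDM14 in epiblast-like cells (EpiLCs) with a *Tet1*/*Tet2* knockdown (KD) was read from 2 of the 6 arrays of the series, KD-labelled EpiLCs + PRDM14 minus KD-labelled EpiLCs (d2). Every gene with at least 1 probe set that carries a single symbol was taken, 17097 genes in all, from 28898 such probe sets among 45037 besides the controls. All cultures are E14tg2a mouse embryonic stem cells (ESCs) whose *Prdm14* transgene, placed with the piggyBac transposon in picked colonies, is switched on by doxycycline. EpiLCs were made from ESCs over 2 days in activin A and bFGF on fibronectin, then replated in GK15 medium with or without doxycycline. The pair labelled *Tet1*/*Tet2* KD carries lentiviral hairpins against both transcripts. Its culture reference is EpiLCs (d4) minus EpiLCs (d2), both with scramble hairpins, since a KD-labelled (d4) array was not analysed here. EpiLCs + PRDM14 with the scramble hairpins, minus the same EpiLCs (d2), give the matching PRDM14 contrast. Each condition has 1 array, so no value has an error and no test between conditions was possible. How precise a value is depends on that number. In the KD-labelled pair the transgene, the medium change and the step from day 2 to day 4 cannot be told apart.

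PRDM14 is a PR-domain protein of ESCs and primordial germ cells that represses the FGF pathway and the *de novo* DNA methyltransferases. TET1 and TET2 oxidize 5-methylcytosine at CpG dinucleotides, and base excision repair can then restore the unmodified cytosine. ESCs stand for the naive state of pluripotency, marked by KLF4, NANOG and ESRRB, and EpiLCs for the formative state of the early epiblast, marked by OTX2, POU3F1 and FGF5, from which germ cells can be induced.

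The hairpins define the labels of the pair, so the sense parts of the 4 oligonucleotides are shown, 5′ to 3′, each scramble under the sequence whose length and GC content it shares (42.9% GC over 21 bases for the *Tet1* pair, 42.1% over 19 bases for the *Tet2* pair). *Tet1* lies at chr10:62804570-62887469 and *Tet2* at chr3:133463677-133545136 (RefSeq, GRCm38.p6), and the place of each target within its transcript was not analysed here.
Tet1: gcagctagctatagagtatag
Scramble (Tet1): gcgaggctataagtcgtaata
Tet2: actactaactccaccctaa
Scramble (Tet2): cgtagaatatgtacctggt

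The targeted transcripts were read first. *Tet1* was not analysed here, because no probe set with its symbol alone is in the annotation. *Tet2* has 2 probe sets, and the brighter one read 7.76 in KD-labelled EpiLCs + PRDM14 and 8.49 in KD-labelled EpiLCs (d2), against 8.35 in scramble EpiLCs (d4), 8.51 in scramble EpiLCs + PRDM14 and 8.54 in scramble EpiLCs (d2), on the log2 scale. The deposited columns of the KD-labelled arrays have a median of 5.07 and the other columns medians of 5.28 to 5.29, so levels were set to a common median before the labels were compared. *Tet2* was then lower by -0.54 in KD-labelled than in scramble EpiLCs + PRDM14, but stood 0.17 above the scramble array in the KD-labelled EpiLCs (d2), and its dimmer probe set gave -0.17 and 0.21. The array labelled KD (d2) thus showed no lower *Tet2* than its scramble counterpart, and the pair is called KD-labelled throughout. At the same common median *Tet3*, which has no hairpin here, stood 0.70 (d2) and 0.69 (+ PRDM14) above the scramble arrays. A common median does not remove such offsets of single genes, so these values cannot settle the knockdown. The paper measured knockdown efficiency by qRT-PCR and western blot. Within the pair the brighter *Tet2* probe set differed by -0.74 and the dimmer one by -0.23. *Prdm14* itself read 4.70 in KD-labelled EpiLCs + PRDM14 and 4.84 in KD-labelled EpiLCs (d2), near the array median. Set to the common median these levels were 4.84 and 4.99, and ESCs stood at 6.88. The array therefore shows no rise of the induced gene in this pair. It shows none in the scramble PRDM14 contrast either (-0.10). There the levels at the common median were 4.87 in scramble EpiLCs + PRDM14 and 4.97 in scramble EpiLCs (d2). Whether the 1 probe set of *Prdm14* reads the transgene is not stated in the methods. The paper measured *Prdm14* by qRT-PCR in wild-type and *Tet1*/*Tet2* KD cells, EpiLCs + PRDM14 included. It also checked PRDM14 in the picked colonies by qRT-PCR and western blot, with and without doxycycline.

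By the brightest probe set of each gene, 364 genes were higher (2.13% of 17097) and 430 lower (2.52%) by at least 1.5-fold in KD-labelled EpiLCs + PRDM14 than in KD-labelled EpiLCs (d2). The culture change had 371 higher (2.17%) and 194 lower genes (1.13%), and the scramble PRDM14 contrast 466 (2.73%) and 326 (1.91%). A 2-fold difference was reached by 145 higher and 104 lower genes in the KD-labelled pair. When 1 probe set past the threshold sufficed, 497 genes were higher and 527 lower. Of the genes called by the brightest probe set, 184 of the higher ones have further probe sets, and in 81 of them (44.0%) at least 1 other also passed. Among the lower ones this held for 67 of 208 (32.2%). Probe sets without a single symbol, 16139 of them, added 169 higher and 215 lower.

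Array controls moved within the KD-labelled pair. Of 104 control probe sets, 4 passed 1.5-fold there and 0 in either scramble comparison. They are the 5′ probe sets of the *dap* spike-in (1.76 and 1.18), 1 probe set of the *thr* spike-in (0.63) and the probe set of the B1 repeat (0.99). The 3′ minus 5′ signal of *Actb* was 0.45 in KD-labelled EpiLCs + PRDM14 and 0.66 in KD-labelled EpiLCs (d2), against 0.41 to 0.47 on the other 4 arrays. Their part in the gene differences was not tested. Over the named probe sets the middle 95% of differences ran from -0.54 to 0.53 in the KD-labelled pair and from -0.39 to 0.52 in the culture change.

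The genes with the largest increase included germline, naive and placental genes. *Rhox6* and *Rhox9*, X-linked homeobox genes of germ cells and placenta, read 8.50 and 8.56 in KD-labelled EpiLCs + PRDM14, against 5.49 and 5.55 in KD-labelled EpiLCs (d2), about 3.01 higher each. The uncharacterized *3830417A13Rik*, also X-linked, differed by 3.08, with a culture change of 2.46. *Tfap2c*, an AP-2 factor of germ cell precursors, differed by 2.90 and *Klf4* by 2.75. Then came *Myl9*, a myosin light chain, with 2.55, the X-linked kinase *Nrk* with 2.49 and *Id3*, a BMP target, with 2.41. The other genes among the 15 with the largest increase were *AF067063* (2.27), *D13Ertd608e* (2.26), *Zfp352* (2.24), *Irx3* (2.21), *Ccser1* (2.15), *H2-Bl* (2.13) and *Perp* (2.12). For *Ccser1* a further probe set differed by only -0.04. In the culture change *Nrk* differed by 3.01, more than in the KD-labelled pair, and *Tfap2c* by 1.26 (2.17 by its other probe set). By their brightest probe sets *Zfp352* (0.36) and *Ccser1* (0.48) stayed within 1.5-fold there. The other probe set of *Zfp352* passed it in the culture change (0.81) and gave 2.58 in the KD-labelled pair.

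At the other end stood *Cbr3*, a carbonyl reductase, at 6.40 in KD-labelled EpiLCs + PRDM14 and 9.85 in KD-labelled EpiLCs (d2), lower by 10.9-fold (-3.45). *Lefty2*, a secreted inhibitor of NODAL, followed with -3.21 and then the epiblast factors *Sox4* (-2.66) and *Pou3f1* (-2.64). *Cpe*, carboxypeptidase E, and *Nefl*, the neurofilament light chain, both differed by -2.58. The remaining genes of the 15 largest decreases were *Bcar3* (-2.30), *Otx2* (-2.17), *Dusp4* (-2.01), *Bbs2* (-2.0), *Manba* (-1.89), *Epas1* (-1.87), *Pkdcc* (-1.85), *Nqo1* (-1.83) and *G2e3* (-1.78). *Sox4* has 5 probe sets that ran from -2.66 to 0.10, and the second probe set gave -0.02 for *Epas1* and -0.30 for *Bcar3*. In the culture change *Epas1* gave -1.61 and *Nefl* -1.38 by their brightest probe sets. *Bcar3* (-0.03), *Sox4* (-0.10) and *G2e3* (0.12) stayed within 1.5-fold there.

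**Figure D1:**
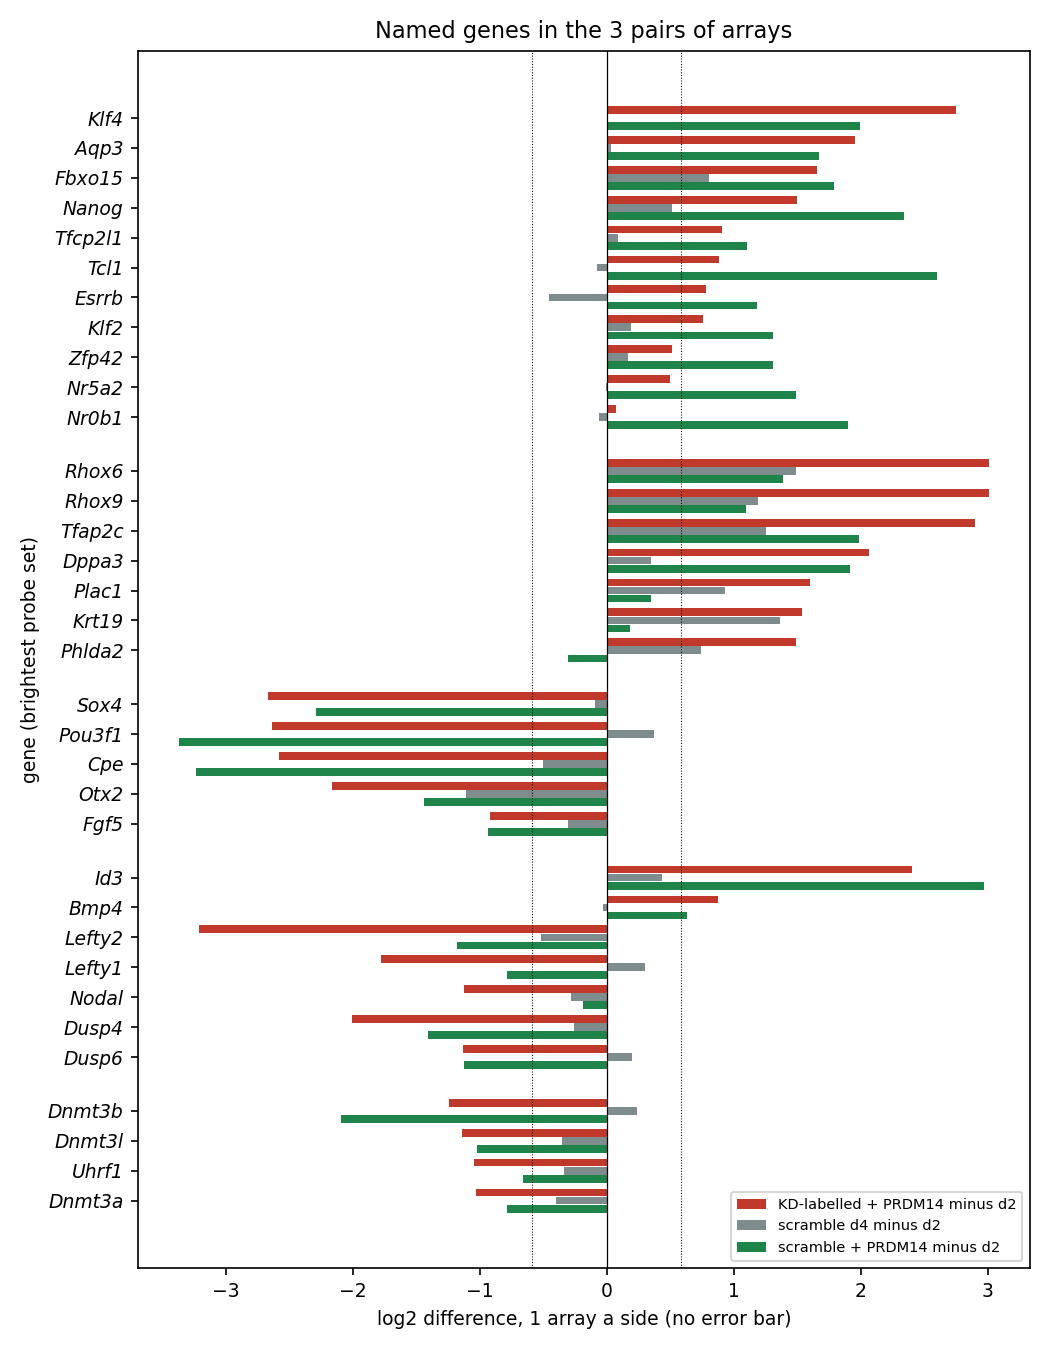
Log2 differences of 34 named genes (vertical axis, brightest probe set) in KD-labelled EpiLCs + PRDM14 minus KD-labelled EpiLCs (d2) (red), scramble EpiLCs (d4) minus (d2) (grey) and scramble EpiLCs + PRDM14 minus (d2) (green), 1 array a side and so without error bars, with dotted lines at 1.5-fold. *Rhox6*, *Rhox9*, *Plac1*, *Krt19* and *Phlda2* have longer red than green bars, and *Tcl1* and *Nr0b1* longer green ones.

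Genes of naive pluripotency were mostly higher. Of 26 measured, 14 passed the threshold upward and 3 downward, with a median of 0.66, where the median of all genes was -0.01. The culture change called 3 and 1 of them, with a median of 0.06, and 12 of the 14 higher genes were not higher in it. *Klf4* read 8.85 in KD-labelled EpiLCs + PRDM14 and 6.10 in KD-labelled EpiLCs (d2), a 6.72-fold difference, while scramble EpiLCs (d4) and (d2) both read 5.25. *Nanog* read 10.27 and 8.77 (1.5), with a culture change of 0.52. The water channel gene *Aqp3* differed by 1.95, the F-box gene *Fbxo15* by 1.65 and the autophagy receptor *Calcoco2* by 1.53, the last with 1.73 in the culture change. Smaller differences past the threshold were those of *Tbx3* (0.95), *Tfcp2l1* (0.91), *Tcl1* (0.88), *Esrrb* (0.78) and *Klf2* (0.76). *Esrrb* moved the other way in culture (-0.46). *Zfp42* (0.51), *Nr5a2* (0.50) and *Nr0b1* (0.08) stayed within 1.5-fold. The 3 lower members were *Manba*, a lysosomal mannosidase, *Gbx2*, a homeobox gene (-1.27, against 1.02 in the culture change), and *Eras*, an ESC-specific RAS (-0.64). Of the core factors shared by naive and primed cells, 0 of 13 were higher and 2 lower, *Epcam* (-1.22) and *L1td1* (-0.65). *Pou5f1* differed by -0.24 and *Sox2* by 0.17.

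In 20 of the 26 naive members the signed KD-labelled difference lay below the scramble one, which had a median of 0.98 and 18 higher. The 20 include *Gbx2* (-1.27 against 0.18), *Eras* (-0.64 against 0.62) and *Manba* (-1.89 against -1.13), which differed more in the KD-labelled pair. Over all genes the signed difference lay below the scramble one in 51.4%. *Nr0b1*, an orphan nuclear receptor, read 7.59 in KD-labelled EpiLCs + PRDM14 and 7.52 in KD-labelled EpiLCs (d2), against 8.24 in scramble EpiLCs + PRDM14 and 6.34 in scramble EpiLCs (d2). Its scramble difference was 1.90. Such levels are as deposited, here and below, so they compare within a pair and not between KD-labelled and scramble arrays. *Tcl1*, a coactivator of AKT, differed by 0.88 where the scramble contrast gave 2.60, *Jam2*, an adhesion molecule, by 0.61 against 2.56, and *Nr5a2* by 0.50 against 1.49. *Nanog* gave 1.5 against 2.34. *Klf4* went the other way, with 2.75 against 2.00. *Sall4* gave 0.48 against 0.56 and *Rif1* -0.02 against 0.38, its 4 probe sets running from -0.44 to 0.65 in the KD-labelled pair. With 1 array a side the gap between the contrasts was not tested for any gene.

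*Klf4* and *Nanog* were higher and *Dnmt3b* lower in the pair, and their upstream sequences differ in the number of CpG sites, on which DNMT3 and TET enzymes act. The 250 bases before their RefSeq starts (GRCm38.p6) are shown with each CG in capitals. They lie at chr4:55532476-55532725 (- strand, 32 CpG) for *Klf4*, at chr6:122707239-122707488 (+ strand, 3 CpG, with a second start whose window holds 2) for *Nanog* and at chr2:153649199-153649448 (+ strand, 21 CpG) for *Dnmt3b*.
Klf4: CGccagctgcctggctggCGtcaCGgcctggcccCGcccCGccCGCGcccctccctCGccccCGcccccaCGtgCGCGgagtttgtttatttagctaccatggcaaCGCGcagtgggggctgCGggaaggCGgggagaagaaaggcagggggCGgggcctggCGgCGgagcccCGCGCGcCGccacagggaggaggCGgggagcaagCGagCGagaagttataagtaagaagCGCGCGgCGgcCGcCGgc
Nanog: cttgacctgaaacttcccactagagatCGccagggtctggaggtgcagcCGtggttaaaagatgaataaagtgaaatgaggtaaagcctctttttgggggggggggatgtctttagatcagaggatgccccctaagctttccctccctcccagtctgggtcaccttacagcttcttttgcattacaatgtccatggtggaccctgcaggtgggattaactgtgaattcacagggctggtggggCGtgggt
Dnmt3b: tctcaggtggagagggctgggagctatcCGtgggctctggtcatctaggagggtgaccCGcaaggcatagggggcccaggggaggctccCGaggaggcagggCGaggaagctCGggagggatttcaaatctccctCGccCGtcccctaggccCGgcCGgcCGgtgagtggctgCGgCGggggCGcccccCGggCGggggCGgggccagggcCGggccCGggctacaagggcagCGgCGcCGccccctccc
Over all 32851 RefSeq windows of this length, searched for CG, which reads the same on both strands, the median was 6 CpG, 92.1% held at least 1, 16.3% held 21 or more and 37.8% held 3 or fewer. Windows were found for 287 of the 364 higher genes (78.8%) and 346 of the 430 lower ones (80.5%). As the share is under 80% for the higher genes, a comparison of CpG between higher and lower genes was void and is not given. DNA methylation was not measured on these arrays, and a link of these sites to the differences was not tested.

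Early germ cell genes were raised in part. Of 13 measured, 5 were higher and 0 lower, with a median of 0.33 (0.89 with dim probe sets left out), against 4 and 0 in the culture change and 8 and 0 in the scramble contrast. Besides *Rhox6*, *Rhox9* and *Tfap2c* these were *Dppa3*, a maternal factor that protects methylation, at 9.01 in KD-labelled EpiLCs + PRDM14 and 6.94 in KD-labelled EpiLCs (d2), and *Ifitm3* (1.32). *Tfap2c* was read alike by both of its probe sets in the KD-labelled pair (2.88 and 2.90). The same 2 probe sets gave 2.17 and 1.26 in the culture change and 2.61 and 1.99 in the scramble contrast. *Rhox6* differed by 1.49 in the culture change and 1.39 in the scramble contrast, so the KD-labelled pair showed the larger difference of the 3. *Rhox9* gave 1.19 and 1.09 there. They are 2 of the 4 *Rhox* genes measured, and the other two did not pass the threshold. *Rhox5* gave -0.32 in the KD-labelled pair, -1.24 in the culture change and -1.0 in the scramble contrast, and *Rhox13* -0.11, -0.77 and -0.43. *Prdm1*, which encodes BLIMP1, differed by -0.11 and *Kit* by 0.45. Later genes of meiosis and the piRNA pathway, 23 measured, had 2 higher (*Stra8*, 0.72, and *Ddx4*, 0.70) and 4 lower, namely the cohesin subunit *Stag3* (-1.11), the RNA-binding *Dazl* (-1.07), *Mael* (-0.90) and *Hormad1* (-0.78). All 4 were also lower in the culture change, by -0.87, -1.27, -1.28 and -1.37.

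Genes of the 2-cell-like state, a rare ESC state with a cleavage-stage programme, were higher in 7 of 8 measured, with a median of 1.64. The culture change called 4 and the scramble contrast 7, with medians of 0.79 and 1.84. *Zfp352* read 8.10 in KD-labelled EpiLCs + PRDM14 and 5.87 in KD-labelled EpiLCs (d2), and the arginase gene *Arg2* differed by 2.04, *Tcstv3* by 1.98 and *Tcstv1* by 1.63. *Zscan4a*, a telomere-related factor, differed by 0.89, less than the 1.73 of the culture change. *Zscan4*, *Tcstv* and *Usp17l* genes belong to families of near-identical copies, so probe sets may read several members.

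Trophoblast and placental genes gave 8 higher and 0 lower of 16, with a median of 0.53 (0.83 with dim probe sets left out). The culture change had 7 higher and a median of 0.30, the scramble contrast 3 and 0.17. The placental gene *Plac1* read 8.21 in KD-labelled EpiLCs + PRDM14 and 6.61 in KD-labelled EpiLCs (d2), with 0.93 in the culture change and 0.35 in the scramble contrast. Keratins of simple epithelia moved with it, *Krt19* by 1.53, *Krt7* by 1.40, *Krt18* by 1.35 and *Krt8* by 1.12. In the scramble contrast *Krt19* gave 0.18, *Krt18* 0.19, *Krt7* 0.68 and *Krt8* 0.70, the last 2 past the threshold. In the culture change they gave 1.37, 1.40, 1.19 and 2.09. *Plac8* differed by 1.51, less than the 2.83 of the scramble contrast and the 2.50 of the culture change. The lineage factors *Cdx2* (0.07), *Eomes* (-0.02) and *Elf5* (0.13) stayed within 1.5-fold, and *Gata2* (0.61) and *Ascl2* (0.83) passed it. Whether more cells of a type or more RNA per cell lies behind a level cannot be told apart in such bulk samples. Markers of other lineages were read as well. Primitive streak and mesoderm genes had 0 of 19 past the threshold in either direction (range -0.27 to 0.17) and fibroblast genes 0 of 15. Endoderm genes had 3 higher of 20, *Apoe* (0.95), *Dab2* (0.84) and *Lamb1* (0.67), while *Gata4*, *Gata6* and *Sox17* gave -0.06, -0.28 and 0.08. Of the 11 neural genes only the tubulin gene *Tubb3* (1.27) passed.

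Primed epiblast markers were lower in part. Of 23 measured, 10 were lower and 1 higher, with a median of -0.42 (-0.74 with dim probe sets left out), against 1 lower and 4 higher and a median of 0.03 in the culture change. The defining markers of EpiLCs stood above the array median of 5.07 before induction, since KD-labelled EpiLCs (d2) read 7.84 for *Otx2*, 8.58 for *Pou3f1* and 6.39 for *Fgf5*. KD-labelled EpiLCs + PRDM14 read 5.68, 5.94 and 5.47. *Pou3f1*, a POU factor, was lower by 6.23-fold but differed by 0.37 in culture, with its second probe set at -0.55. *Otx2* was also lower in the culture change (-1.11). *Pkdcc* (-1.85), *Sox11* (-1.23), *Foxd3* (-0.91), *Grhl2* (-0.75) and *Pim2* (-0.74) were lower too. *Pim2*, a serine/threonine kinase, gave 0.77 in the culture change and -2.48 in the scramble contrast. Only the surface glycoprotein gene *Cd24a* was higher (1.38), as it was in culture (2.60). In the scramble contrast 12 of the 23 were lower, with a median of -0.77.

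**Figure D2:**
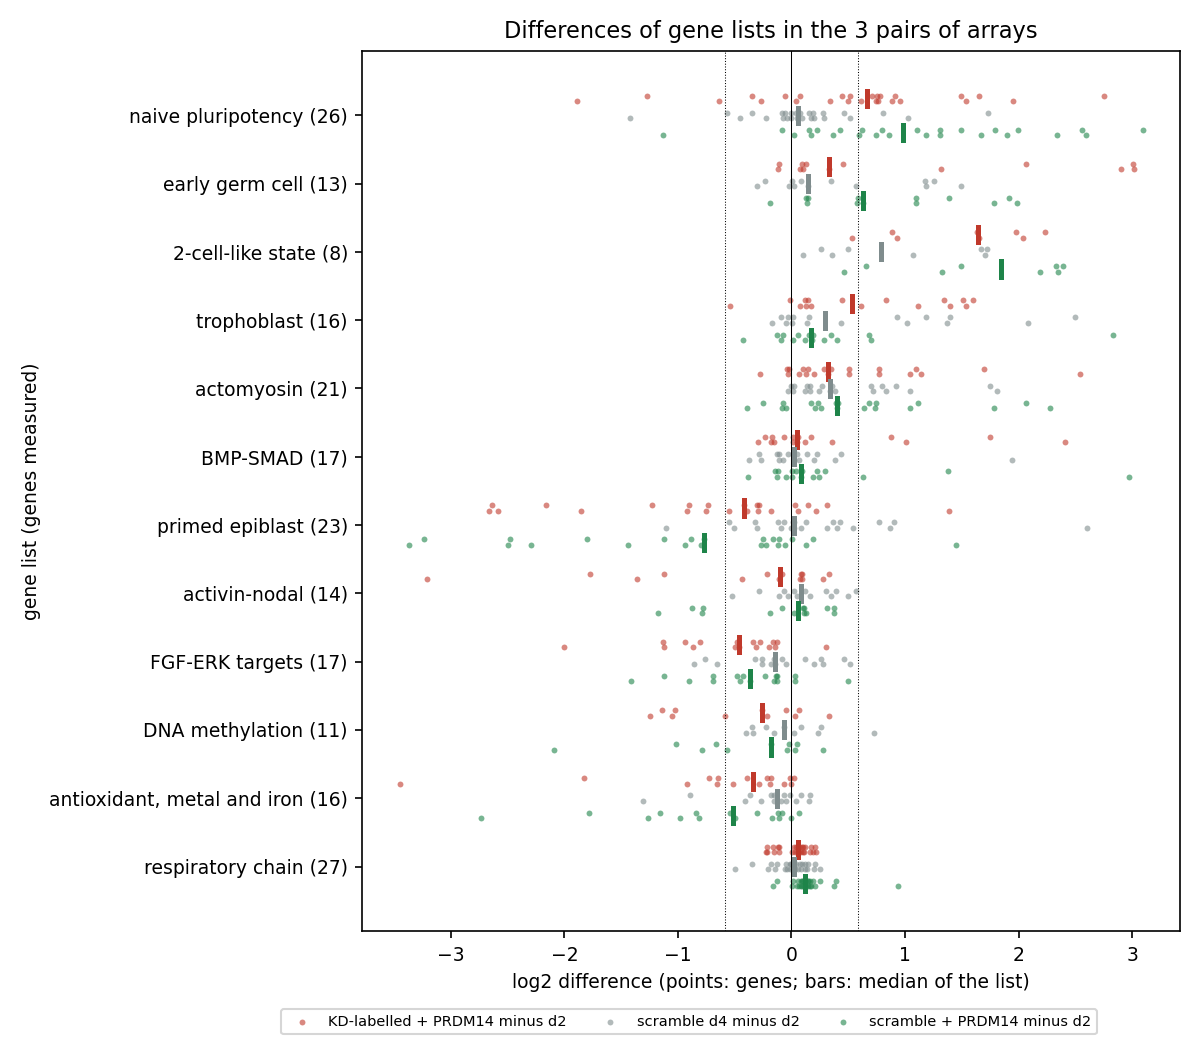
Log2 differences (horizontal axis) of the genes of 12 lists (vertical axis, number measured in parentheses) for the KD-labelled pair (red), the culture change (grey) and the scramble PRDM14 contrast (green); points are genes, bars are medians and dotted lines mark 1.5-fold. Naive genes centre at 0.66 and primed genes at -0.42 in the KD-labelled pair, near 0 in the culture change, and respiratory chain genes near 0 in all 3.

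Most signalling genes stayed within 1.5-fold. Of 17 targets of FGF-ERK signalling, which drives exit from the naive state, 6 were lower and 0 higher. Their median was -0.46 (-0.22 by the mean of a gene's probe sets), against -0.14 in the culture change. The scramble contrast had 5 lower and 0 higher, with a median of -0.36. The ERK phosphatase *Dusp4* read 5.81 in KD-labelled EpiLCs + PRDM14 and 7.82 in KD-labelled EpiLCs (d2), a difference of -2.01. *Dusp6* and *Phlda1* differed by -1.13 each, *Ccnd1*, cyclin D1, by -0.93, *Spry1* by -0.87 and *Myc* by -0.80. *Ccnd1* and *Phlda1* were lower in the culture change as well (-0.86 and -0.77), *Dusp6* was not (0.20).

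Of 14 genes of activin-nodal signalling 4 were lower and 0 higher, where the culture change called 0. The scramble contrast also had 4 lower and 0 higher. *Lefty2* read 4.08 in KD-labelled EpiLCs + PRDM14 and 7.29 in KD-labelled EpiLCs (d2), lower by 9.25-fold. Scramble EpiLCs (d4) read 7.74, scramble EpiLCs + PRDM14 7.09 and scramble EpiLCs (d2) 8.27, so its scramble difference was -1.18. *Lefty1* differed by -1.78 (0.30 in culture, -0.78 in the scramble contrast), the SMAD corepressor *Skil* by -1.36 and the ligand gene *Nodal* by -1.13, with -0.19 for *Nodal* in the scramble contrast. In 12 of the 14 the KD-labelled difference lay below the scramble one, as in 51.4% of all genes. Of the 14 genes, 10 stayed within 1.5-fold in the KD-labelled pair, and the gap was not tested.

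BMP-SMAD genes gave 4 higher and 0 lower of 17, the targets *Id3* and *Id2* (1.75), the inhibitor *Smad6* (1.01) and the ligand *Bmp4* (0.88). *Id3* read 8.59 in KD-labelled EpiLCs + PRDM14 and 6.18 in KD-labelled EpiLCs (d2), with 0.43 in culture and 2.97 in the scramble contrast. *Id2* was higher in the culture change too (1.94), and another of its 3 probe sets gave -0.03. *Smad6* differed by -0.37 in culture and by 0.08 in the scramble contrast. Among 14 genes of LIF-STAT3 signalling, *Bcl3* (1.17) and *Stat3* (0.61) were higher and the receptor gene *Lifr* (-0.77) lower. WNT genes had 1 of 18 past the threshold, the receptor gene *Fzd7* (-1.70), whose second probe set gave 0.003. The retinoic acid list (14 genes, *Stra8*) and YAP-TEAD targets (10 genes, *Ptpn14*, 0.71) each had 1 member past the threshold, upward. Over all genes 2.13% were higher and 2.52% lower, so 1 member in a list is little.

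Part of the DNA methylation machinery was lower. Of 11 genes 4 were lower and 0 higher, and none of the 4 was lower in the culture change. The scramble contrast also had 4 lower and 0 higher. *Dnmt3b*, a *de novo* methyltransferase, read 9.66 in KD-labelled EpiLCs + PRDM14 and 10.91 in KD-labelled EpiLCs (d2), and both of its probe sets agreed (-1.24 and -1.20). Scramble EpiLCs (d4) read 11.70, scramble EpiLCs + PRDM14 9.37 and scramble EpiLCs (d2) 11.47, a scramble difference of -2.10. *Dnmt3l*, the cofactor, differed by -1.14, *Uhrf1*, which brings DNMT1 to replicating DNA, by -1.05 and *Dnmt3a* by -1.03, its 5 probe sets running from -1.54 to -0.49. *Hells* (-0.58) and *Dnmt1* (-0.26) stayed within 1.5-fold by their brightest probe sets. In the list of TET and base excision repair genes, 21 measured, *Gadd45g* (-1.04), *Tet2* and *Tdg* (-0.66), a thymine DNA glycosylase, were lower and *Gadd45b* (1.04) higher. H3K9 methylation genes had 2 lower of 16, the demethylase gene *Kdm4c* (-0.94) and the methyltransferase gene *Ehmt2* (-0.87), and Polycomb genes 1 of 20, *Kdm2b* (-0.62). Over all genes 2.52% were lower.

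Metabolic genes showed a mixed picture. Antioxidant, metal and iron genes had 6 lower and 0 higher of 16, with a median of -0.34 and -0.12 in culture. The scramble contrast had 7 lower and 0 higher, with a median of -0.52. In the KD-labelled pair *Cbr3* was followed by the quinone reductase *Nqo1* (-1.83) and thioredoxin reductase *Txnrd1* (-0.92). Then came the glutathione synthesis genes *Gclc* (-0.73) and *Gclm* (-0.65), and transferrin, *Trf* (-0.65). *Nqo1* was lower in culture by -1.30 as well. Glycolysis and hypoxia genes had 3 higher and 5 lower of 22, where the culture change had 5 higher and 0 lower. *Bnip3*, a mitophagy receptor, differed by -1.23 (0.63 in culture), *Ldha* by -0.99, *Pdk1* and *Pfkm* by -0.97 each and *Slc16a3* by -0.62. *Ldhb* (1.13), the glucose transporter *Slc2a3* (0.92) and *Ndrg1* (0.86) were higher. Sterol and fatty acid synthesis genes had 4 lower of 21, *Cyp51* (-0.93), *Insig1* (-0.81), *Acaca* (-0.63) and *Fasn* (-0.59). Amino acid supply genes had 4 lower of 24, among them the exchanger gene *Slc7a7* (-1.68) and *Slc38a2* (-1.04), and 2 lower under the mean of probe sets or the quantile normalization. The transporter gene *Slc6a15* differed by 0.52, against 3.0 in the scramble contrast. Respiratory chain genes had 0 of 27 past the threshold, between -0.23 and 0.21, and G2-M genes 0 of 24. G1-S and replication genes had 3 lower of 34, *Gins2* (-0.99), *Ccnd1* and *Ccne2* (-0.62), with a median of -0.25 that was -0.21 in culture. Of 9 housekeeping genes only *Gusb* (-0.65) passed.

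Part of the actomyosin genes were higher, as they were in culture. Of 21, 7 were higher and 0 lower, all 7 also higher in the culture change, which called 8. *Myl9* read 7.50 in KD-labelled EpiLCs + PRDM14 and 4.96 in KD-labelled EpiLCs (d2), with 1.74 in culture. Calponin 2, *Cnn2*, differed by 1.69, tropomyosins *Tpm1* and *Tpm4* by 1.14 and 1.05 and caldesmon, *Cald1*, by 1.10. Junction genes of epithelia split into 6 lower, with *Epcam*, *Gja1* (-0.80), *Grhl2*, *Esrp1* (-0.68), *Cdh1* (-0.63) and *Ocln* (-0.59), and 2 higher, *Gjb5* (1.33) and *Cldn7* (1.17), of 21. None of the 6 was lower in culture. *Gja1*, connexin 43, gave -2.35 in the scramble contrast.

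Imprinted genes had 6 higher and 2 lower of 25, against 11 higher and 0 lower in the culture change. The zinc finger gene *Peg3* (2.02), the placental growth regulator *Phlda2* (1.49), *Ndn* (1.27), *Igf2* (1.25), the CDK inhibitor *Cdkn1c* (0.91) and *Ascl2* (0.83) were higher, and each was higher in culture. *Phlda2* read 10.81 in KD-labelled EpiLCs + PRDM14 and 9.31 in KD-labelled EpiLCs (d2), against 9.36 in scramble EpiLCs + PRDM14 and 9.66 in scramble EpiLCs (d2). The noncoding RNAs of the *Dlk1*-*Dio3* domain ran against culture, *Rian* with -1.25 and *Meg3* with -0.92 where culture gave 1.59 and 0.70. The scramble contrast gave -1.58 and -0.97 for them. Their probe sets disagreed, *Meg3* running from -1.62 to 0.13 over 10, and by the mean of probe sets neither passed the threshold (-0.42 for *Meg3* and -0.50 for *Rian*). Genes on chromosome X made up 29 of the 364 higher genes with a known place (7.97%), against 3.52% of all 16936 placed genes and 44 of 371 in the culture change (11.9%). Of the lower genes with a known place 24 of 428 were X-linked (5.61%). The scramble contrast had 6.88% of its higher and 7.36% of its lower genes there, so the X share was above that of all placed genes in both directions.

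The KD-labelled pair shares no array with the culture change. Of its 364 higher genes 145 were also higher in culture, 39.8% of this list and 39.1% of the 371. Of its 430 lower genes 102 were lower in culture, 23.7% of this list and 52.6% of the 194. Across 17097 genes the differences had a Pearson r of 0.47 and a Spearman rho of 0.32, given as a description, since genes share their arrays and are not replicates. The genes farthest above the culture change were *Klf4*, *Trpt1*, a tRNA phosphotransferase (1.08 against -1.32), *Htra1*, a serine protease (1.76 against -0.25), *Id3* and *AF067063*. Farthest below it were *Pou3f1*, *Rian*, *Lefty2*, *Sox4* and *Cbr3*. Called in opposite directions were 2 of the higher genes, *Gca* and *Trpt1*, and 13 of the lower ones, among them *Gbx2*, *Foxp1* (-1.24 against 0.66), *Bnip3* and *Car3*, a carbonic anhydrase (-0.92 against 1.56).

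**Figure D3:**
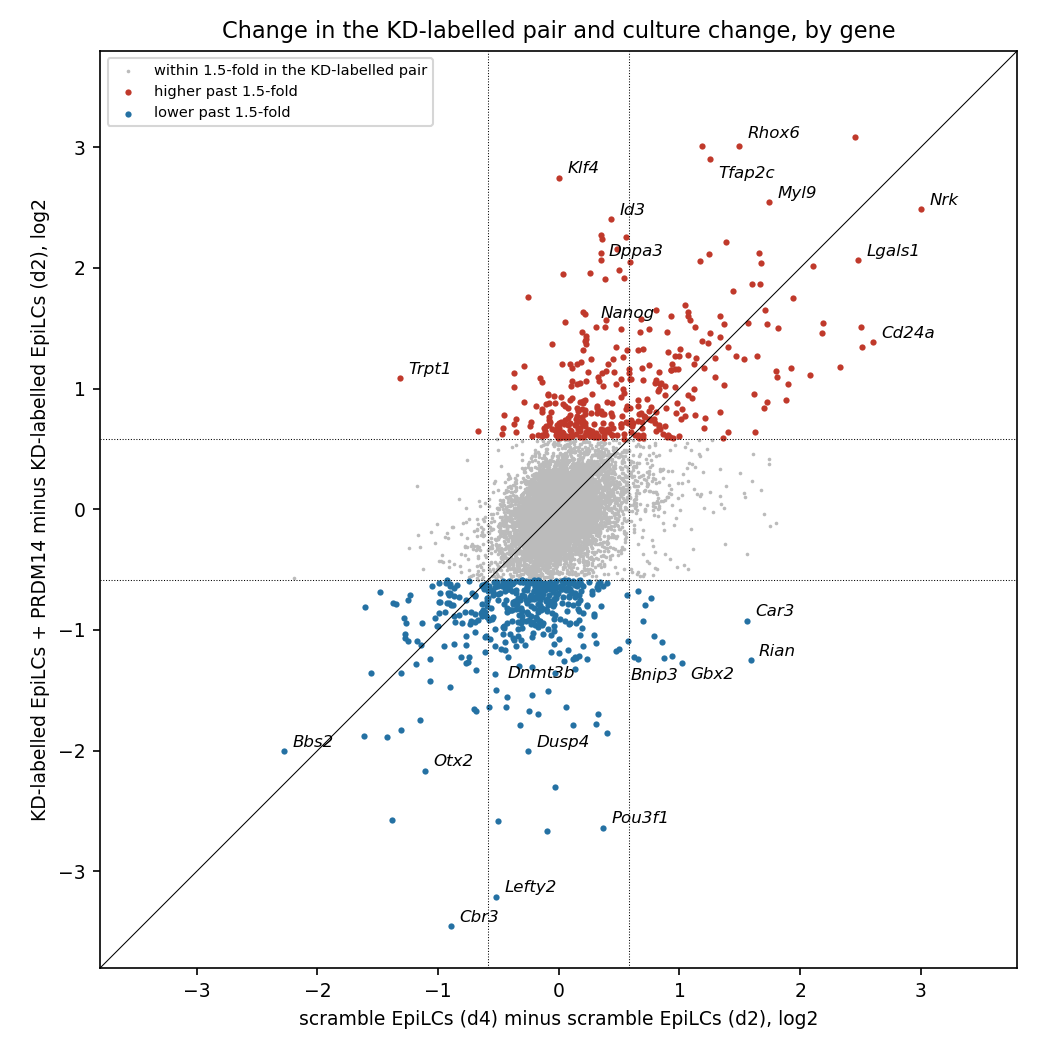
Log2 difference of each of 17097 genes in KD-labelled EpiLCs + PRDM14 minus KD-labelled EpiLCs (d2) (vertical axis) against scramble EpiLCs (d4) minus (d2) (horizontal axis), with genes past 1.5-fold in the KD-labelled pair in red (364 higher) and blue (430 lower), dotted lines at 1.5-fold and a solid line of equality. *Klf4* and *Lefty2* lie far from the line and *Lgals1* and *Bbs2* close to it.

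With the scramble PRDM14 contrast, which also shares no array with the KD-labelled pair, 211 higher genes were common, 58.0% of the 364 and 45.3% of the 466. Of the lower genes 184 were common, 42.8% of the 430 and 56.4% of the 326. The correlation across genes was 0.64 (Pearson) and 0.41 (Spearman). In neither scramble comparison were 117 of the higher (32.1%) and 201 of the lower genes (46.7%) called, while 109 and 57 were called in both. Over all 17097 genes, 2.17% were called higher in the culture change and 2.73% in the scramble contrast, and 1.13% and 1.91% lower. As each call rests on 1 array a side, a gene called in neither is not shown to be particular to the KD-labelled pair. Farthest above the scramble contrast were *Rhox9*, *Phlda2*, *3830417A13Rik*, *Pim2*, *Irx3*, a homeobox gene (2.21 against 0.53), *Rhox6*, *Prom1*, which encodes CD133 (0.27 against -1.34), *Mbnl3*, an X-linked splicing regulator (1.87 against 0.26), *Cdkn1c* and *Gja1*. Farthest below it were *Slc6a15*, *Lefty2*, *Jam2*, *Nr0b1*, *Nefl* (-2.58 against -0.75), *Kank3*, *Tcl1*, *Trim2*, a ubiquitin ligase (-0.49 against 1.20), *Stmn2* and *Tmem47* (-1.10 against 0.57).

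**Figure D4:**
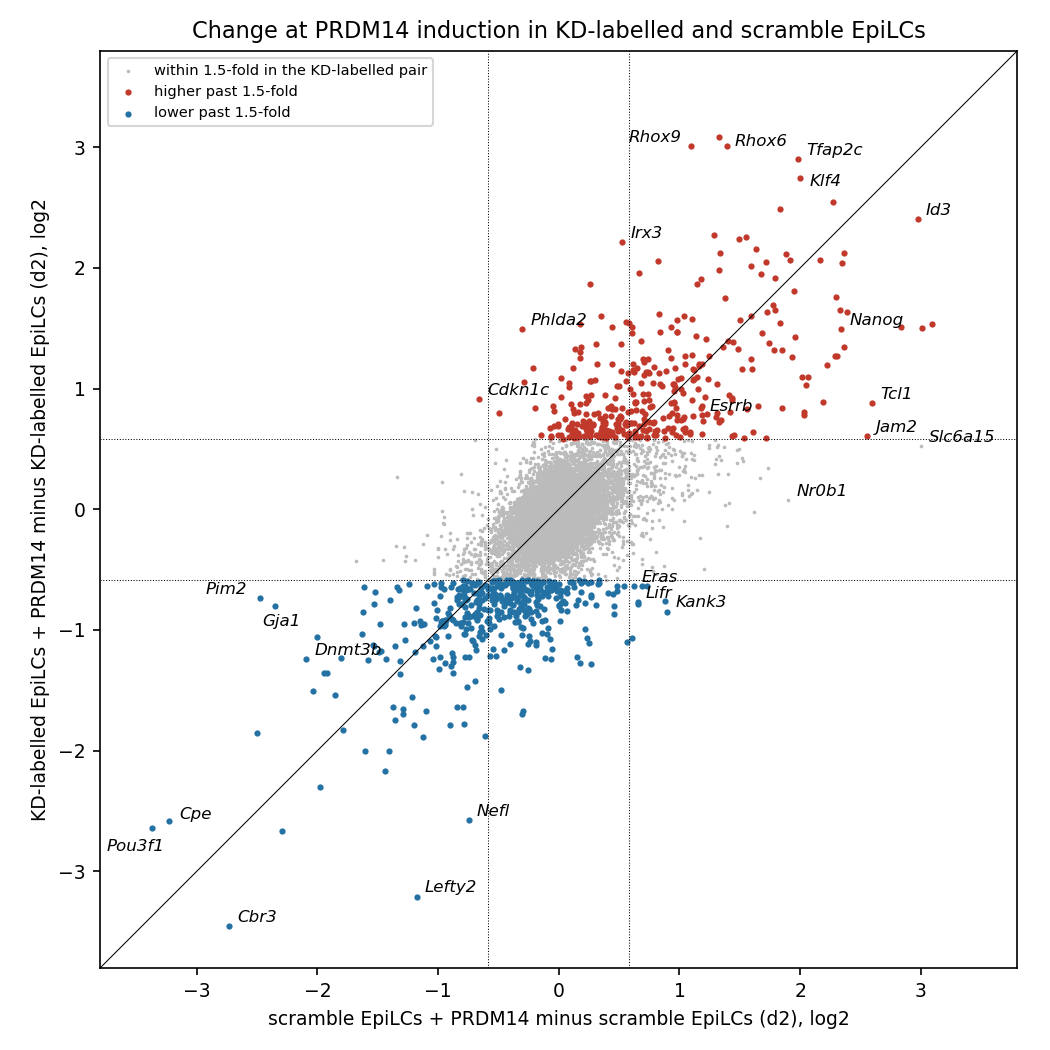
Log2 difference of each gene in KD-labelled EpiLCs + PRDM14 minus KD-labelled EpiLCs (d2) (vertical axis) against scramble EpiLCs + PRDM14 minus scramble EpiLCs (d2) (horizontal axis), coloured by the call in the KD-labelled pair, with dotted lines at 1.5-fold and a solid line of equality. *Tcl1*, *Jam2* and *Nr0b1* lie right of the line and *Rhox6*, *Rhox9*, *Irx3* and *Phlda2* left of it.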

How the data were processed

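Total RNA of each condition was hybridized to 1 Affymetrix array strip (GeneAtlas). The authors deposited log2 signals made by robust multi-array average in the Affymetrix Expression Console, of unstated version. The KD-labelled columns have their own median and probably come from a separate run, so differences were taken within the pair. Levels not set to a common median are not to be compared between KD-labelled and scramble arrays. Of 45141 probe sets, 104 controls were left out, and 551 with several and 15588 with no symbol entered no gene count. Gene names come from GEO's platform annotation.

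A gene was given by its brightest probe set (highest mean signal, 6 arrays) and called at a 1.5-fold difference (0.585 on the log2 scale), without a signal filter and without p-values. The genes and the 42 lists (821 symbols, 709 measured, other names matched through RefSeq gene IDs) were chosen with earlier results of these data known. Named by rule were the 15 largest increases and decreases, the genes the paper names for these arrays, up to 6 members of each list and the 10 genes in each direction farthest from the culture change and from the scramble contrast, and only some of them appear in the text. *Actb*, *Ascl2*, *Cdh1*, *Cdx2*, *Dnmt1*, *Elf5*, *Eomes*, *Eras*, *Foxd3*, *Foxp1*, *Gata2*, *Gata4*, *Gca*, *Lgals1*, *Ndrg1*, *Ocln*, *Slc16a3*, *Sox11*, *Sox17*, *Zscan4a* and the genes with opposite calls in the 2 PRDM14 contrasts were named after their values were seen. Alternatives were a 2-fold threshold, a filter on mean log2 signal under 5, quantile normalization of all 6 arrays, a median shift, other gene rules and subtraction of the culture change. Recovery of known differences was tested on simulated data. The noise there was drawn from the spread of differences in the KD-labelled pair itself, so it does not measure replicate error. Python 3.11.15, pandas 2.3.3, numpy 2.4.6 and scipy 1.17.1 were used.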

Additional observations from a re-analysis of the deposited data

Results flagged for a closer look

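Of the genes called in both PRDM14 contrasts, 9 had opposite directions in KD-labelled and scramble EpiLCs, and with 1 array a side the difference between the contrasts was not tested. *Cdkn1c* was higher in the KD-labelled pair (0.91) and lower in the scramble contrast (-0.66), with 0.73 in the culture change. The other 8 were lower in the KD-labelled pair and higher in the scramble contrast. They are *Stmn2*, a stathmin (-1.07 against 0.61), *Kank3* (-0.85 against 0.90), *C730049O14Rik* (-0.78 against 0.66), *Lifr* (-0.77 against 0.65), *Mical1* (-0.76 against 0.88), *Eras* (-0.64 against 0.62), *Cnpy1* (-0.64 against 0.69) and *Dpp4* (-0.63 against 0.73). In the culture change *Lifr* gave -1.0, *Cnpy1* -0.90, *Dpp4* -1.05, *Kank3* -0.61 and *C730049O14Rik* -0.64, each past the threshold in the direction of the KD-labelled pair. The call of *Lifr* rests on 1 of 3 probe sets, the others giving -0.12 and -0.06 in the KD-labelled pair and -0.11 and 0.05 in the scramble contrast, and by their mean it was not called (-0.32). The same held for *Kank3*, whose other probe sets gave -0.30 and -0.17, with a mean of -0.44. The second probe set stayed within 1.5-fold in the KD-labelled pair for *Mical1* (-0.35), *Cnpy1* (-0.52) and *Dpp4* (-0.07) too.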

How the results depend on the processing

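A 2-fold threshold left 214 higher and 142 lower probe sets, against 608 and 613 at 1.5-fold, and 187 higher and 122 lower genes, against 497 and 527 with any probe set past it. At 2-fold the share of lower genes also lower in culture was 16.3%, against 23.7%. The mean over a gene's probe sets gave 294 higher and 303 lower genes. The filter on dim probe sets, the quantile normalization, the median shift and the subtraction of the culture change kept these counts within 1.5 times. No value of a named gene past the threshold turned its sign under the mean of its probe sets or the quantile normalization. Of 286 named genes, 24 crossed the threshold under the mean of probe sets and 7 under the quantile normalization. By the mean *Tbx3* (0.55), *Esrrb* (0.50), *Jam2* (0.18), *Fgf5* (-0.52), *Grhl2* (-0.28), *Ccnd1* (-0.53), *Tet2* (-0.48), *Ehmt2* (-0.51), *Stat3* (0.35), *Lifr* (-0.32), *Ptpn14* (0.25), *Dab2* (0.45), *Lamb1* (0.36), *Acaca* (-0.22), *Slc38a2* (-0.52), *Gusb* (-0.44), *Car3* (-0.34), *Kank3* (-0.44), *Meg3* and *Rian* were no longer called, and *Hells* (-0.78) was. Of the counts of list members past the threshold, 32 moved by over 1.5 times at a 2-fold threshold and 52 did not. At 2-fold 5 naive genes were higher, and 6 primed epiblast genes and 3 FGF-ERK targets lower. Under the mean of probe sets 10 counts moved, under the quantile normalization 3 and with dim probe sets left out 1. By the mean, LIF-STAT3 genes had 1 higher and 0 lower, H3K9 methylation genes 1 lower, YAP-TEAD targets 0 higher, endoderm genes 1 higher and imprinted genes 0 lower. By the quantile normalization Polycomb genes had 0 lower. No paired analysis was possible because each condition has 1 array, and leaving out a replicate was not possible for the same reason.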

Other observations

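Among the 60 largest differences in either direction, some genes are in none of the lists and were chosen after their values were seen. Higher in KD-labelled EpiLCs + PRDM14 than in KD-labelled EpiLCs (d2) were *Lrrn4* (7.23 and 5.17), the galectin gene *Lgals1* (11.26 and 9.20), *Gpat3*, an acyltransferase of triglyceride synthesis (6.30 and 4.34), the adenylate kinase gene *Ak4* (9.43 and 7.51), *Vgll3*, a cofactor of TEAD factors (5.98 and 4.12), and the histone variant gene *Macroh2a1* (9.32 and 7.51). Of these, *Lgals1*, *Vgll3* and *Macroh2a1* were also higher in culture, by 2.48, 1.67 and 1.44, and *Gpat3* was not (0.26). Lower were *Apela*, a ligand of the apelin receptor (7.95 and 9.74), *Aass*, an enzyme of lysine breakdown (6.46 and 8.15), *Txnip*, the thioredoxin-interacting protein (7.32 and 8.86), and *Timm21* (6.19 and 7.85). *Aass* differed by -1.69 in the KD-labelled pair, -0.17 in the culture change and -0.31 in the scramble contrast.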
